A study of Mus musculus with 10 samples.

Results

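Semaphorins are secreted or membrane-bound guidance proteins, and plexins and neuropilins are the receptors that read them. The genes described here are the 31 mouse genes whose symbols mark them as a semaphorin of classes 3 to 7, a plexin or a neuropilin, out of 24538 genes counted. They comprise 20 ligands and 11 receptors, the latter being 9 plexins and 2 neuropilins. Their RNA was compared between macrophages from lung metastases and macrophages from normal lung. Metastasis-associated macrophages (MAMs) came from wild type C57BL6/J females into whose tail vein a mouse breast cancer line, E0771-LG, had been injected at 6 to 8 weeks of age. Resident alveolar macrophages (RAMs) came from normal lungs of wild type C57BL6/J mice. The paper states that mice of this strain were assigned at random to the untreated or the metastasis group. All mice were 8 to 10 weeks old. Both populations were sorted as large CD45+ F4/80+ LY6C- MRC1+ cells, MAMs as CD11B+CD11C- and RAMs as CD11B-CD11C+, after digestion in the presence of inhibitors of transcription. There were 5 libraries of each, and each MAM library pooled dissected metastases under a millimetre across from 2 to 4 mice. By the methods a sample was an individual mouse, or metastases pooled from a wider range of mice than the 2 to 4 of the labels. The p-values measure only the spread between these libraries. MAMs and RAMs differed in gate, site and tumour at once, and these cannot be told apart.

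Class 3 semaphorins are secreted and mostly act through a complex of a neuropilin, which binds them, and a plexin, which signals. Classes 4 to 6 span the membrane and bind plexins directly, and Sema7a is held by a lipid anchor and uses an integrin as well as Plxnc1. A plexin carries a GTPase-activating domain inside the cell, through which it lowers integrin adhesion and remodels the cytoskeleton. In macrophages and other immune cells these proteins are known for steering migration and for contacts with lymphocytes, and in vessels for opposing or sharing receptors with VEGF.

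The libraries held between 50746305 and 87523247 reads counted on genes. Levels are given in CPM, reads of a gene scaled to a common library size. Itgam, which encodes CD11B, averaged 6270 CPM in MAMs and 64.3 CPM in RAMs, and Itgax, which encodes CD11C, averaged 170.6 and 991 CPM. Both followed the gate. Of 8 genes typical of alveolar macrophages, 7 were called lower in MAMs by the limits given below, beside 15.1% of all tested genes. Marco, the other, averaged 232 CPM in MAMs and 368 CPM in RAMs and was not called. In bulk RNA of this kind fewer cells of a type and less RNA per cell cannot be told apart.

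Of the 31 genes, 15 had a mean FPKM (fragments scaled for transcript length and library size) of at least 1 in either group and were tested with edgeR's quasi-likelihood test over 11571 genes. A gene was called when its Benjamini-Hochberg adjusted p was under 0.05 and its fold change over 2. Sema4d, Sema4c, Plxna4, Plxnb2 and Plxna1 rose in MAMs, and Sema3e, Sema6d and Plxnb3 fell. These were 5 genes called higher, beside 15.3% of all tested genes, and 3 called lower, beside 15.1%. Another 6 passed the adjusted p without reaching 2-fold, so that 14 of 15 passed it, beside 56.2% of all tested genes. The groups did not overlap in 11 of the 15, beside 44.9% of all tested genes, and for each of these an exact two-sided permutation test over the libraries gave p = 0.00794, the smallest that 5 against 5 allow. Since the filter lets a gene in when only 1 group is high, and 4 of the 15 (Plxna4, Plxnb3, Sema3e and Sema4c) had a mean FPKM under 1 in the other group, these counts do not describe all 31 genes. The median log2 fold change of the tested ligands was 0.23 and that of the tested receptors 0.74, beside -0.02 over all tested genes.

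**Figure D1:**
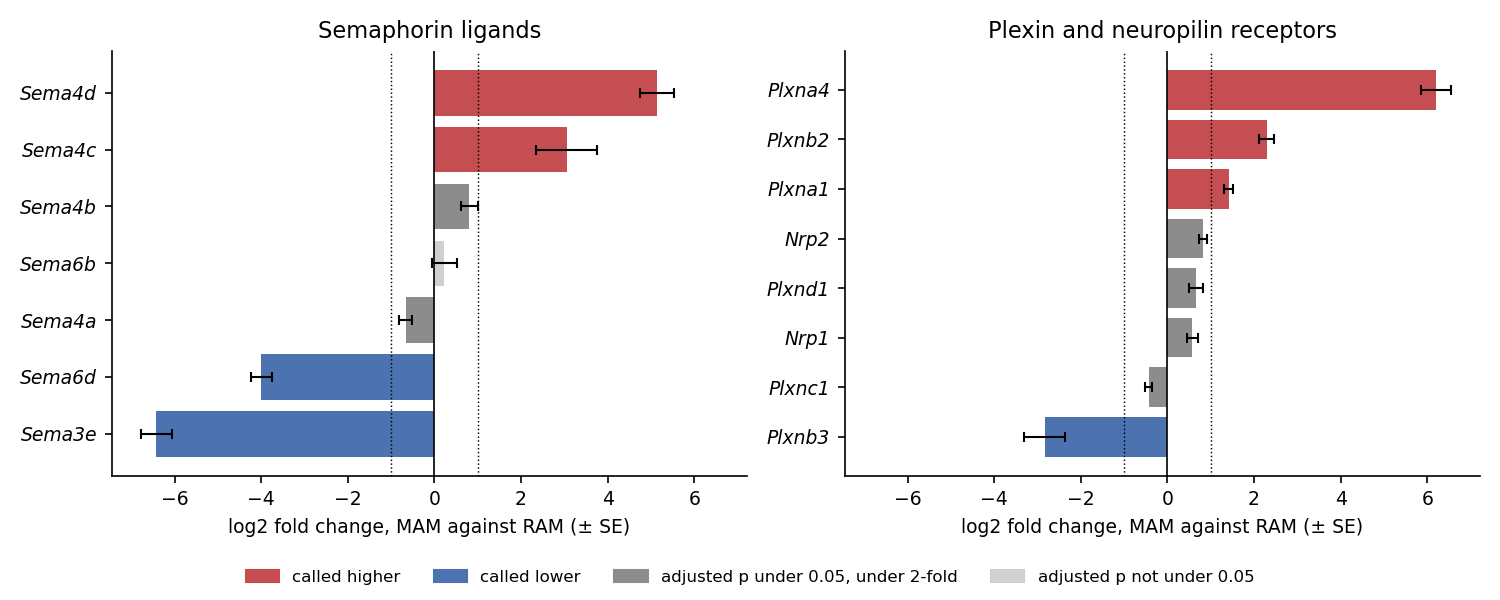
Fitted log2 fold change of MAMs against RAMs for the 7 tested ligands (left) and the 8 tested receptors (right), with bars for the standard error and dotted lines at 2-fold. Sema4d at 5.14 and Plxna4 at 6.20 lie farthest to the right, and Sema3e at -6.43 lies farthest to the left.

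The start regions of 4 of the called genes are shown because they are the 2 called higher with the highest FPKM in MAMs and the 2 called lower with the highest FPKM in RAMs. Each run is 300 bases of RefSeq sequence on GRCm38.p6, from 250 bases before an annotated start to 50 bases after it, read 5′ to 3′ on the gene's strand with CpG dinucleotides in capitals. The Sema4d run is chr13:51756634-51756933 on the minus strand, the Plxnb2 run chr15:89180739-89181038 on the minus strand, the Sema3e run chr5:14025026-14025325 on the plus strand and the Sema6d run chr2:124089719-124090018 on the plus strand.
Sema4d: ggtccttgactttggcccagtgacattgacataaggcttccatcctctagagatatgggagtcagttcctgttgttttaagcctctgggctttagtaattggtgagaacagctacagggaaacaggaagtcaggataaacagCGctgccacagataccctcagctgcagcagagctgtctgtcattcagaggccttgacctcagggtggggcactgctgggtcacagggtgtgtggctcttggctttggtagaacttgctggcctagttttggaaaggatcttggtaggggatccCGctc
Plxnb2: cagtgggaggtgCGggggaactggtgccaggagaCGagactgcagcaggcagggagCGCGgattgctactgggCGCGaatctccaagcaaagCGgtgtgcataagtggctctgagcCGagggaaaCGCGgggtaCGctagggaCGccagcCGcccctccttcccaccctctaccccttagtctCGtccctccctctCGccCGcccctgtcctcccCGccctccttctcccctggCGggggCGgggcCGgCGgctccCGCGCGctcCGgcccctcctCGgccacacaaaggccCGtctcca
Sema3e: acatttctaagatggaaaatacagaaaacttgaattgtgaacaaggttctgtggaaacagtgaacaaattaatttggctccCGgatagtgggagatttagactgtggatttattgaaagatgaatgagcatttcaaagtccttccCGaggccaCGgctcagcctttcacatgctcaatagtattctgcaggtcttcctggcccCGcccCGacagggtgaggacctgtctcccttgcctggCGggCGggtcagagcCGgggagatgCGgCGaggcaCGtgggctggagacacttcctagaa
Sema6d: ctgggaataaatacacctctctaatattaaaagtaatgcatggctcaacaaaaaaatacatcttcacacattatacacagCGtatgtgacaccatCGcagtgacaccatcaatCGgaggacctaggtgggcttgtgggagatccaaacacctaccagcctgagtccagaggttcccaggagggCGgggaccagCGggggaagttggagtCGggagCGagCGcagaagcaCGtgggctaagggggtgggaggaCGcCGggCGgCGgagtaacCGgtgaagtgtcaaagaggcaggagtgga
The Sema4d run held 2 CpG dinucleotides and its 2 other listed starts 3 each, against a median of 7 over 32851 promoters, while the Plxnb2 run held 27 and its other listed start 15. The Sema3e run held 11. The Sema6d run held 14 and its other listed start 6. Of the 31 genes, 26 had a listed start, with 37 windows in all. The letters CACGTG, an E-box and its own reverse complement, were in 1 window each of Sema3e, Sema6d and Sema4b, which was 3 of 37 windows, beside 7.15% of all promoters. The GC box GGGCGG, searched on both strands, was in 27 of 37 windows, beside 35.7% of all promoters. TATAAA was in none of them, beside 13.6%, and GAGGAAGT, of the kind bound by the macrophage factor PU.1, was in none either, beside 3.20%. The core of an interferon-stimulated response element, searched on both strands, was in windows of Plxnc1 and Sema6b, beside 3.44% of all promoters. Such matches describe letters only.

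Sema4d, a membrane semaphorin also known as CD100 that can be shed and acts on Plxnb1, Plxnb2 and CD72, had the highest FPKM of the 31 genes in MAMs. Its level was 408, 381, 447, 450 and 456 CPM in MAM replicates 1 to 5. In RAM replicates 1 to 5 it was 5.94, 6.34, 7.02, 15.1 and 26.6 CPM. Every MAM library was far above every RAM library, and RAM replicates 4 and 5 were above the other 3. The log2 fold change was 5.14 ± 0.387 (SE, edgeR, n = 5 and 5, adjusted p = 2.10e-08). Without RAM replicates 4 and 5, an alternative chosen after seeing the data, it was 6.06. Beside these libraries the B cell gene Cd79b was at 4.69 and 0.234 CPM in RAM replicates 4 and 5 and at 0.145 to 4.29 CPM in the other 3. The platelet chemokine genes Pf4 and Ppbp averaged 565 and 148 CPM in MAMs and 6.24 and 2.29 CPM in RAMs, while the platelet receptor genes Itga2b and Gp1bb were at 1.68 and 0.0179 CPM in MAMs and at 3.34 and 0 CPM in RAMs. The part of either cell type in the Sema4d level was not tested. Sema4d lies at chr13:51685529-51793747 on the minus strand, and no other annotated gene shared its exons.

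Sema4c, the other ligand that rose, binds Plxnb2. It was low in both groups, at 6.42, 2.68, 4.54, 2.14 and 6.18 CPM in MAMs and at 0.342, 1.31, 0.0414, 0.647 and 0.277 CPM in RAMs. The groups did not overlap, and RAM replicate 2 was the closest to the MAMs. The log2 fold change was 3.05 ± 0.700 (SE, edgeR, n = 5 and 5, adjusted p = 0.00167), and 3.73 without RAM replicate 2. On the log2(FPKM + 1) scale with limma it was 0.89 and under 2-fold. A transcript on the opposite strand, D430040D24Rik, overlaps 334 exonic bases of Sema4c, and the strand setting of the counting is not given in the sources used here.

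Sema3e, a secreted class 3 semaphorin that is unusual in binding Plxnd1 without a neuropilin, showed the largest fall. RAM replicates 1 to 5 held 48.5, 62.5, 57.1, 62.8 and 57.3 CPM. MAM replicates 1 to 5 held 0.447, 0.60, 1.5, 0.253 and 0.603 CPM. The RAM libraries were close to each other, and all MAM libraries were at or under 1.5 CPM. Sema3e fell by 6.43 ± 0.358 on the log2 scale (SE, edgeR, n = 5 and 5, adjusted p = 6.31e-10). Its mean MAM level was 1.18% of its RAM level. Among 81 genes over 1000 CPM in RAMs the lowest MAM level was 1.07% of the RAM level, so the residual Sema3e RNA was near the smallest level seen for abundant RAM genes, and its source was not tested.

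Sema6d, a transmembrane semaphorin that binds Plxna1 and, with Trem2 and Tyrobp, acts in dendritic cells and osteoclasts, also fell. It was at 170, 201, 196, 120 and 175 CPM in RAMs and at 7.52, 9.47, 17.1, 7.07 and 12.8 CPM in MAMs. The highest MAM library was well below the lowest RAM library. The log2 fold change was -4.00 ± 0.240 (SE, edgeR, n = 5 and 5, adjusted p = 1.54e-09), and the MAM level was 6.27% of the RAM level. The MAM level lay further above the smallest seen for abundant RAM genes than that of Sema3e did.

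The remaining tested ligands differed less. Sema4a, a membrane semaphorin known for T cell priming through Timd2 and for acting on plexins, was at 164, 182, 113, 101 and 130 CPM in MAMs and at 230, 178, 198, 214 and 270 CPM in RAMs. One pair of libraries overlapped, MAM replicate 2 and RAM replicate 2, and the log2 fold change of -0.66 ± 0.153 (SE, edgeR, adjusted p = 0.00181) was under 2-fold. Sema4b, a membrane semaphorin of the same class, was at 48.7 to 107 CPM in MAMs and 27.4 to 45.8 CPM in RAMs. Its log2 fold change was 0.81 ± 0.197 (SE, edgeR, adjusted p = 0.00261), and 0.57 without MAM replicate 2, the highest library. Sema6b, a transmembrane ligand of class A plexins, did not pass the test, with 8.04 to 19.3 CPM in MAMs, 7.89 to 18.9 CPM in RAMs and a log2 difference of 0.23 ± 0.280 (SE, edgeR, adjusted p = 0.500).

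**Figure D2:**
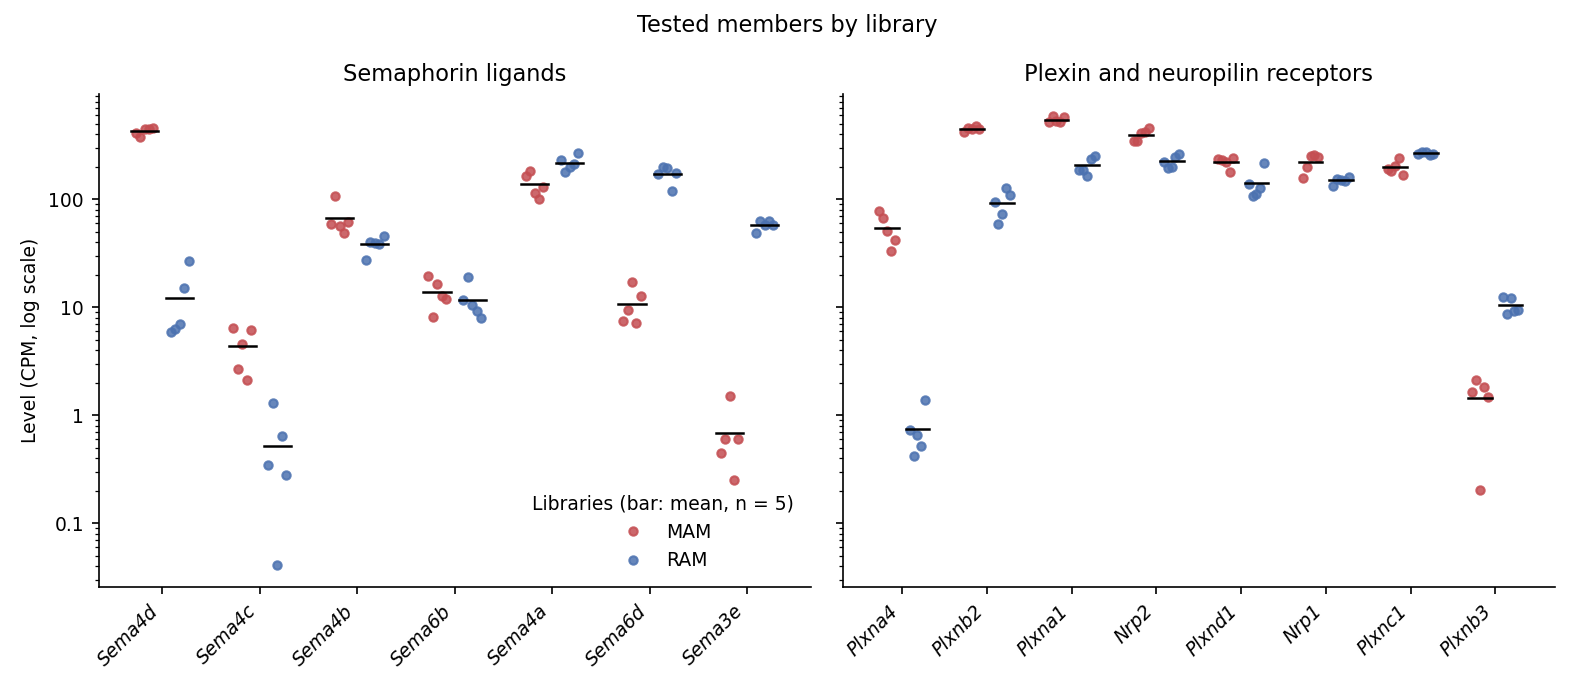
Level in CPM (log axis) of each tested member in the 5 MAM and 5 RAM libraries, ligands on the left and receptors on the right, with bars for the means. Sema4d and Plxna4 show a wide gap with MAMs on top, Sema3e and Sema6d show one with RAMs on top, and the groups overlap for Sema6b.

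Sema3a, the founding class 3 ligand that acts through Nrp1 with a class A plexin, had a mean FPKM under 1 in both groups and was not among the 11571 genes. Its reads were nevertheless unevenly placed, with 208, 69, 459, 449 and 288 in MAM replicates 1 to 5 and 0, 2, 1, 1 and 4 in RAM replicates 1 to 5. Every MAM library held many more reads than any RAM library. In the fit without a filter on low values, over 18035 genes, the log2 fold change was 7.43 ± 0.861 (SE, edgeR, n = 5 and 5, adjusted p = 1.15e-06). Pooled over libraries and scaled for depth, the MAM level was 181 times the RAM level, with an exact 95% counting interval from 91.8 to 421 times that covers counting error only.

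Sema4g, a membrane semaphorin, went the other way in that fit, with 106, 407, 247, 138 and 153 reads in RAMs and 86, 3, 13, 23 and 28 in MAMs, a log2 fold change of -2.70 ± 0.755 (SE, edgeR, adjusted p = 0.00773). Of the 18035 genes tested without a filter, 13.0% were called higher and 12.9% lower. Of the 13 ligands below the FPKM limit, Sema3a and Sema5a were called higher and Sema3g, Sema4g and Sema6c lower. Sema5a, a transmembrane semaphorin whose known receptor is Plxnb3, had 2 to 78 reads in MAMs and reads in a single RAM library, 14 of them (adjusted p = 0.0446, edgeR). Sema3g, a class 3 ligand of Nrp2, and Sema6c, of the transmembrane class 6, had no read in any MAM library. Their RAM levels were at least 18.6-fold and at least 19.3-fold higher, taking 3 counts over the group as the limit that a count of 0 allows, but 2 and 1 of the 5 RAM libraries were also at 0. Sema3d and Sema5b had no MAM read either, their RAM reads came from 2 libraries and 1 library, and neither passed the test (adjusted p = 0.0563 and 0.126, edgeR). Sema3b, Sema3c, Sema3f, Sema4f, Sema6a and Sema7a had between 0 and 239 reads per library and did not pass the test.

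**Figure D3:**
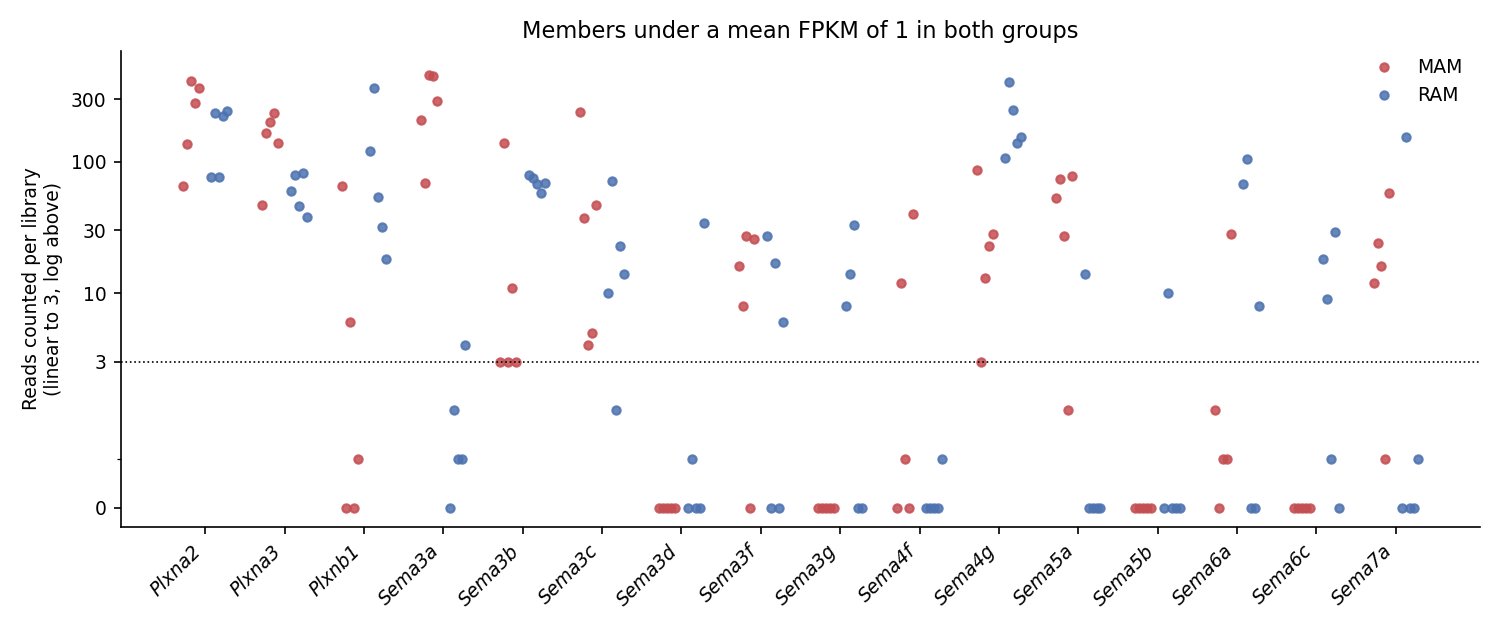
Reads counted per library (linear up to 3 reads, logarithmic above) for the 16 members under a mean FPKM of 1 in both groups, with a dotted line at 3 reads. Sema3a separates the groups, with 69 to 459 reads in MAMs and at most 4 in RAMs, and Sema3d, Sema3g, Sema5b and Sema6c lie at 0 in all MAM libraries.

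Among receptors, Plxna4, a class A plexin that signals for Sema3a with Nrp1 and for class 6 semaphorins, showed the largest rise. Its level was 77.6, 67.0, 51.3, 33.0 and 42.2 CPM in MAM replicates 1 to 5 and 0.736, 0.420, 0.663, 0.522 and 1.39 CPM in RAM replicates 1 to 5. All MAM libraries were well above all RAM libraries, of which replicate 5 was the highest. The log2 fold change was 6.20 ± 0.350 (SE, edgeR, n = 5 and 5, adjusted p = 7.58e-10). The RAM level was 1.37% of the MAM level, and among 116 genes over 1000 CPM in MAMs the lowest RAM level was 0.912% of the MAM level. The source of the RAM reads was not tested. The antisense gene Plxna4os3 overlaps 110 exonic bases.

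Plxnb2, the class B plexin that binds Sema4c and Sema4d, was at 419, 456, 447, 476 and 450 CPM in MAMs. In RAMs it was at 93.7, 59.1, 72.7, 126 and 108 CPM. The MAM libraries were close to each other and none came near the RAM range. The log2 fold change was 2.29 ± 0.164 (SE, edgeR, n = 5 and 5, adjusted p = 1.19e-08).

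Plxna1, the class A plexin that binds Sema6d and serves class 3 ligands together with neuropilins, was at 523, 591, 528, 515 and 579 CPM in MAMs and at 186, 187, 165, 237 and 254 CPM in RAMs. Its log2 fold change of 1.41 ± 0.110 (SE, edgeR, n = 5 and 5, adjusted p = 3.20e-08) was the smallest among the plexins that rose. The antisense gene Gm26811 overlaps 970 exonic bases of Plxna1. Plxnb3, the class B plexin that binds Sema5a, fell from 12.4, 8.71, 12.2, 9.20 and 9.44 CPM in RAMs to 1.65, 2.10, 0.201, 1.83 and 1.48 CPM in MAMs. MAM replicate 3 was the lowest, and the groups did not overlap. The log2 fold change was -2.83 ± 0.465 (SE, edgeR, n = 5 and 5, adjusted p = 9.36e-05), and -0.82 and under 2-fold on the log2(FPKM + 1) scale with limma.

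The other 2 tested plexins and both neuropilins passed the adjusted p without reaching 2-fold. Plxnd1, the receptor of Sema3e, was at 238, 233, 220, 180 and 242 CPM in MAMs and at 139, 106, 111, 128 and 215 CPM in RAMs. The ranges overlapped through RAM replicate 5, the highest of its group, and the log2 fold change was 0.67 ± 0.163 (SE, edgeR, adjusted p = 0.00266). Plxnc1, the receptor of Sema7a, was lower in MAMs, at 190, 181, 204, 241 and 167 CPM against 265, 271, 276, 256 and 264 CPM in RAMs, with a log2 fold change of -0.44 ± 0.0902 (SE, edgeR, adjusted p = 0.000730) and no overlap.

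Nrp1, which binds Sema3a and VEGF-A, was at 156, 200, 253, 258 and 244 CPM in MAMs and at 132, 154, 152, 147 and 162 CPM in RAMs. MAM replicate 1 lay inside the RAM range and the other MAM libraries above it, with a log2 fold change of 0.57 ± 0.122 (SE, edgeR, adjusted p = 0.000901). Nrp2, which prefers Sema3f and VEGF-C, was at 350, 346, 414, 418 and 454 CPM in MAMs and at 222, 196, 197, 245 and 261 CPM in RAMs. Its log2 fold change was 0.82 ± 0.102 (SE, edgeR, adjusted p = 5.89e-06), without overlap. The ratio of Nrp2 to Nrp1 FPKM was 2.07 ± 0.294 in MAMs and 1.74 ± 0.240 in RAMs (SD, n = 5 each), and its ranges in the groups overlapped.

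Plxna2, Plxna3 and Plxnb1 were below the FPKM limit. Plxnb1, the classical Sema4d receptor, had 65, 0, 6, 0 and 1 reads in MAMs and 120, 365, 54, 32 and 18 in RAMs, and did not pass the test without a filter (adjusted p = 0.111, edgeR). Plxna2 had 65 to 414 reads in MAMs and 76 to 245 in RAMs, and Plxna3 47 to 236 and 38 to 82. Plxnb2 was the class B plexin with the most reads in MAMs. With edgeR's own filter on low counts Plxna3 was called higher in MAMs. It did not pass without a filter, at a log2 fold change of 1.39 ± 0.578 (SE, edgeR, adjusted p = 0.0630), and its groups overlapped.

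FPKM corrects for transcript length, so levels of different genes can be compared as far as the deposited values allow. FPKM and counts came from different programs and did not always move together. Lyz2 had 1909687 reads and an FPKM of 0 in RAM replicate 1. Sema4g had 247 reads and 0.111 FPKM in RAM replicate 3 but 106 reads and 0.240 FPKM in RAM replicate 1. In MAMs Sema4d led with a mean of 100.0 FPKM, above Plxnb2 at 78.0, and none of its libraries reached down to the range of Plxnb2. Plxnb2, Nrp2 at 68.7, Plxna1 at 66.3 and Sema4a at 48.7 followed, each overlapping its neighbour in range. In RAMs Sema4a led with 78.0 FPKM, followed without overlap by Nrp2 at 40.1 and then Plxnc1 at 32.7, while Plxna1, Sema6d, Plxnd1, Nrp1 and Plxnb2 lay between 25.6 and 16.95 with overlapping neighbours. Sema4d in RAMs was at 2.84 FPKM and had rank 12.

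The make-up of the ligands differed accordingly. Sema4d accounted for 57.0% ± 7.01 of the summed ligand FPKM in MAMs and 2.11% ± 1.36 in RAMs. Sema4a accounted for 27.4% ± 5.43 and 60.1% ± 5.76, Sema6d for 0.964% ± 0.360 and 19.8% ± 4.36, and Sema3e for 0.0542% ± 0.0379 and 5.54% ± 0.794 (SD, n = 5 each). The sum itself was 176 ± 10.2 FPKM in MAMs and 129 ± 13.2 FPKM in RAMs. In each of these 5 measures the groups did not overlap. The shares add up to a whole and are not independent of each other. The shares of Sema4b, at 10.4% ± 2.86 and 8.36% ± 1.41, and of Sema6b, at 2.54% ± 0.887 and 2.88% ± 1.19, overlapped.

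Plexins together reached 211 ± 6.73 FPKM in MAMs and 103 ± 16.0 FPKM in RAMs, and both neuropilins together 103 ± 13.4 and 63.1 ± 6.00 FPKM (SD, n = 5 each). Plxnb2 took 36.9% ± 1.45 of plexin FPKM in MAMs and 16.3% ± 3.33 in RAMs, and Plxna1 31.4% ± 1.22 and 24.9% ± 1.93. Plxnc1 went from 32.6% ± 5.37 in RAMs to 11.4% ± 1.83 in MAMs, and Plxnd1 from 24.4% ± 4.29 to 17.9% ± 1.89. All 4 shares were separate between the groups.

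**Figure D4:**
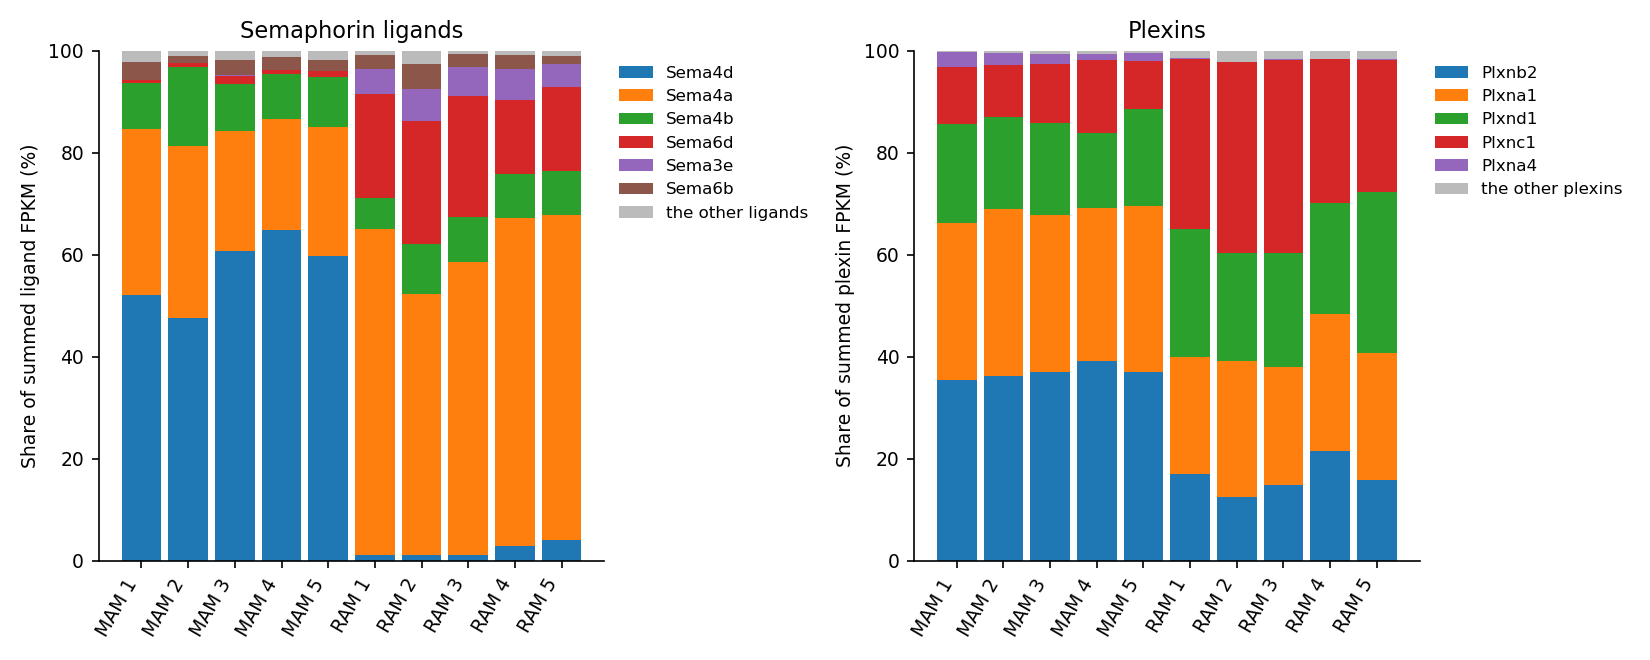
Share in percent of the summed FPKM of all ligands (left) and all plexins (right) that each gene took in each library. Sema4d fills 57.0% on average in MAMs and Sema4a 60.1% in RAMs, while Plxnb2 takes 36.9% in MAMs and Plxnc1 32.6% in RAMs.

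The known partners of these proteins were read from 5 lists of 71 genes, of which 60 were tested. Of these, 19 were called higher, beside 15.3% of all tested genes, and 11 lower, beside 15.1%. With 18 more that passed the adjusted p under 2-fold, beside 56.2% of all tested genes that passed it, 12 did not pass. The lists had a median log2 fold change of 0.27 beside -0.02 over all tested genes. For co-receptors and alternative receptors, 5 of 13 tested genes rose and 4 fell. Cd72, the lymphocyte and macrophage receptor of Sema4d, was at 146 to 189 CPM in MAMs and 1.96 to 3.82 CPM in RAMs, a log2 fold change of 5.79 ± 0.189 (SE, edgeR, adjusted p = 1.53e-12). Met, the HGF receptor that couples to class B plexins, had a log2 fold change of 5.84 ± 0.377. Flt1, a VEGF receptor, fell by 2.89 ± 0.218 on the log2 scale. Of the other VEGF receptors, named after their values were seen, Kdr was called higher with a log2 fold change of 4.93 ± 0.580 (SE, edgeR). Flt4 was below the FPKM limit, with means of 2.63 CPM in MAMs and 0.623 CPM in RAMs, and was called higher without a filter. Erbb2, another kinase that couples to class B plexins, fell by 2.42 ± 0.638 on the log2 scale. Without RAM replicate 5, the highest RAM library, Erbb2 was below the FPKM limit and was not tested. Sema4d and 2 of its receptors, Plxnb2 and Cd72, were thus all higher in MAMs. Its receptor Plxnb1 did not share the rise. Plxnb1 was below the FPKM limit, with means of 0.294 CPM in MAMs and 1.94 CPM in RAMs. Without a filter it did not pass the test (adjusted p = 0.111, edgeR).

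Trem2, which joins Plxna1 in the receptor complex for Sema6d, rose with a log2 fold change of 2.71 ± 0.192, while its adaptor Tyrobp had 0.23 ± 0.0811 and Itgb1, the integrin chain used by Sema7a, 0.50 ± 0.0758 (SE, edgeR), both under 2-fold. Timd2, the receptor of Sema4a on T cells, had no read in any library. Among the other ligands of neuropilins, Vegfa was at 198 to 277 CPM in MAMs and 2.48 to 4.97 CPM in RAMs, with a log2 fold change of 5.91 ± 0.193 (SE, edgeR, adjusted p = 1.54e-12). Pdgfb rose by 4.71 ± 0.209 and Vegfb fell by 1.16 ± 0.298 on the log2 scale. Without RAM replicates 4 and 5 the log2 fold change of Vegfb was -0.91 and under 2-fold. Of the 6 tested genes of this list 3 did not pass.

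Mmp14, a membrane metalloprotease that sheds Sema4d, rose with a log2 fold change of 6.73 ± 0.259 (SE, edgeR, adjusted p = 8.89e-12), from 1.59 to 3.20 CPM in RAMs to 152 to 327 CPM in MAMs. It was the 1 gene called of 5 tested sheddases and convertases. Of 3 genes named after their values were seen, Adam10 and Adam17, which shed many membrane proteins, had log2 fold changes of 0.88 and 0.47 and Furin, which cleaves class 3 semaphorins, -0.32, all under 2-fold.

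For GTPases and their regulators 5 of 17 tested genes rose and 2 fell. Tiam1, an activator of Rac, had a log2 fold change of 6.82 ± 0.188, and Mras, a Ras-family substrate of plexins, 5.88 ± 0.529 and 6.66 without RAM replicate 2. Rnd3, a small GTPase of the kind that binds plexins, fell by 1.94 ± 0.145 (SE, edgeR). Its relative Rnd1, named after its values were seen, was called higher at 4.65 ± 0.951, with means of 2.41 CPM in MAMs and 0.0920 CPM in RAMs. Rnd1 was not called without MAM replicate 1 or without MAM replicate 5. Rnd2 was below the FPKM limit. Farp1 was called lower at -1.04 ± 0.303 but was under 2-fold in 5 of the 10 fits that left out 1 library. For kinases and cytoskeletal effectors 6 of 19 tested genes rose and 4 fell. Mical3 and Mical1, of the oxidases that disassemble actin downstream of plexins, fell by 3.98 ± 0.264 and 2.57 ± 0.116, and Mical2, named after its values were seen, by 2.30. Of the collapsin response mediators, Dpysl3 and Crmp1 rose, while Dpysl2, named after its values were seen, was at 0.42 and under 2-fold. Dpysl3 had a log2 fold change of 5.33 ± 0.466, and 6.08 without RAM replicate 5. Crmp1 had 38 to 535 reads in MAM libraries and 3 reads in all RAM libraries together, a ratio of 523 with an exact 95% counting interval from 179 to 2540.

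**Figure D5:**
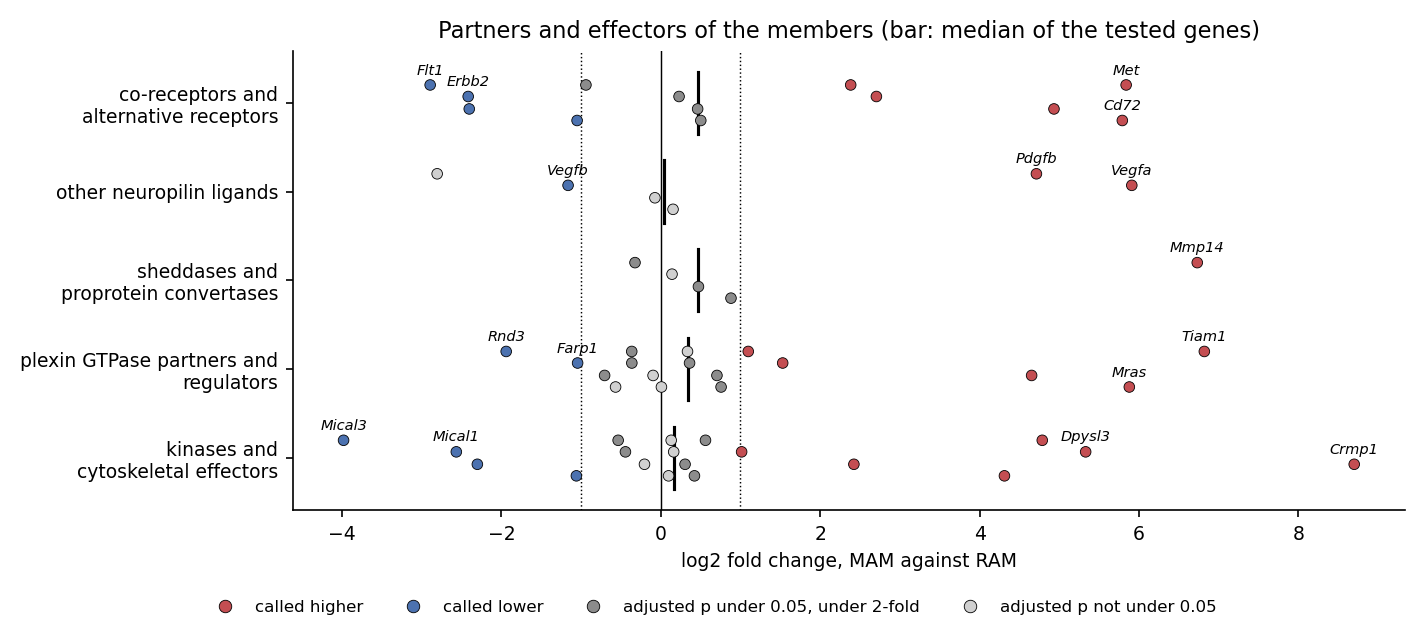
Fitted log2 fold change of MAMs against RAMs for the 60 tested partner genes in 5 lists, with a bar for the median of each list, dotted lines at 2-fold and names at the called extremes. Medians lie between 0.04 and 0.47, with called genes on both sides, and the plotted value of Crmp1 depends on the prior count because RAMs held 3 of its reads.

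Markers of other cell types that make these proteins were read beside the results. The 10 endothelial genes summed to 17.7 to 59.8 CPM in MAM libraries and 133 to 215 CPM in RAM libraries, with 7 and 6 of them under 1 CPM. Vwf carried the RAM sum, with means of 19.3 CPM in MAMs and 151 CPM in RAMs, whereas Pecam1, at 16.6 and 2.28 CPM, and Cdh5, at 7.28 and 2.60 CPM, were higher in MAMs, and Cldn5 was at 0 and 0.241 CPM. The 8 epithelial and tumour cell genes summed to 10.6 to 24.1 CPM in MAMs and 590 to 702 CPM in RAMs, where Krt19, Cdh1 and Epcam led with 436, 131 and 76.8 CPM. These were the 3 of the 8 that were called, all lower in MAMs, while Krt8 was at 1.48 and 0.0453 CPM and Krt18 at 1.81 and 0.119 CPM in MAMs and RAMs. The sums of the 8 lung epithelial genes overlapped between the groups, at 24.4 to 43.4 CPM in MAMs and 30.7 to 52.4 CPM in RAMs. Single genes of this list differed, with 1 called higher, beside 15.3% of all tested genes, and 3 lower, beside 15.1%. Hopx was the higher one, with means of 21.0 CPM in MAMs and 1.10 CPM in RAMs. Sftpc, Sftpb and Scgb1a1 were lower, at 4.03, 0.526 and 0.752 CPM in MAMs and 14.4, 4.28 and 10.4 CPM in RAMs. The 5 platelet genes summed to 348 to 1047 CPM in MAMs and 9.54 to 16.3 CPM in RAMs, 2 of them under 1 CPM in either group. Pf4 and Ppbp were the 2 called, and Gp9 was at 0.809 and 0.880 CPM. The list for T and NK cells summed to 12.6 to 36.8 CPM in MAMs and 255 to 313 CPM in RAMs, of which Cd2 alone had means of 21.1 and 282 CPM. The defining gene Cd3e was at 1.58 and 1.22 CPM, and Cd3d, Cd3g, Lck, Klrb1c and Ncr1 were under 1 CPM in both groups. The 8 fibroblast and mural cell genes summed to 3.67 to 41.4 CPM in MAMs and 0.676 to 6.84 CPM in RAMs. Called higher were 3, Col1a1, Pdgfra and Mgp, beside 15.3% of all tested genes, and 0 lower. They averaged 5.21, 4.24 and 1.62 CPM in MAMs and 0.197, 0.188 and 0.356 CPM in RAMs. The sums of the 8 neutrophil genes overlapped, at 124 to 312 CPM in MAMs and 140 to 204 CPM in RAMs, with 3 genes called higher and 1 lower. Krt19, Cdh1 and Epcam thus moved in the direction of Sema3e and Sema6d, and Pf4 and Ppbp in that of Sema4d and Plxna4, without the rest of their lists. The part of all these marker genes in the results was not tested.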

How the data were processed

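RNA-seq was measured in 5 MAM and 5 RAM libraries, grouped by their labels. The authors aligned paired reads to GRCm38 (mm10) with TopHat2 2.0.13, counted reads per gene on UCSC RefGene models with HTSeq 0.6.1 and deposited whole-number counts. They also deposited FPKM values made with Cufflinks 2.2.1. Amplified cDNA libraries without molecular identifiers were sequenced, so counting intervals do not cover amplification.

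Entries that name no gene held 56.5% ± 1.65 of all counts in MAMs and 63.2% ± 0.898 in RAMs (SD, n = 5 each) and were left out. Genes were tested if either group averaged an FPKM of 1 or more and if any read was counted, 11571 in all, with edgeR 4.0.16 (quasi-likelihood, TMM, R 4.3.3) and Benjamini-Hochberg adjustment over all of them. A gene was called with an adjusted p under 0.05 and a fold change over 2, limits taken from the study. The standard error is the absolute log2 fold change divided by the square root of the F statistic. CPM were computed from the counts with TMM factors. The fit was checked on simulated counts with known changes. Gene positions and overlaps came from GENCODE M21 and promoter sequences from RefSeq (GRCm38.p6).

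The members, the lists of partners and markers, the tests and the alternatives were chosen with earlier results of these data known. All members were described, with every library given for called members and for the 8 with the highest mean FPKM in either group, and of each partner list the 2 largest called changes in each direction plus receptors of Sema4d, Sema6d, Sema7a and Sema4a. Alternatives were other scalings, DESeq2 1.42.0, other filters and fold limits, limma 3.58.1 on log2(FPKM + 1) and log2(FPKM + 0.1), the replicate number as a block, each library left out in turn and, added after seeing the data, RAM replicates 4 and 5 both left out.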

Additional observations from a re-analysis of the deposited data

Results flagged for a closer look

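In 72 groups of 5 libraries, from 36 genes, 6 held a library that stood apart from the others by Dixon's criterion, and chance would mark about 1 group in 20. Sema3e was at 1.5 CPM in MAM replicate 3 and at 0.253 to 0.603 CPM in the other MAM libraries. Sema4b was at 107 CPM in MAM replicate 2 and at 48.7 to 62.0 CPM in the others. Sema4g was at 1.75 CPM in MAM replicate 1 and at 0.0562 to 0.416 CPM in the others. Vegfa was at 277 CPM in MAM replicate 4 and at 198 to 205 CPM in the others. Mras was at 0.646 CPM in RAM replicate 2 and at 0.0835 to 0.234 CPM in the others. Dpysl3 was at 5.14 CPM in RAM replicate 5 and at 0.942 to 1.55 CPM in the others. The 6 values came from 6 different libraries. For the 5 genes that were tested, all but Sema4g, the direction held when that library was left out.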

How the results depend on the processing

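Across 300 refits of the 15 tested members, 20 each, no fold change reversed and 298 stayed on the same side of the limits. The exceptions were Plxnb3 and Sema4c with limma on log2(FPKM + 1), a scale that by construction shrinks low genes and also gave -2.88 for Sema3e and 2.24 for Plxna4. On that scale 1 ligand was called higher in place of 2, and 0 receptors lower in place of 1. Without a filter 4 ligands were called higher and 5 lower in place of 2 each, and with edgeR's own filter 4 were called higher and 3 lower. Dropping the 2-fold limit gave 6 receptors higher in place of 3 and 2 lower in place of 1, and 30 partner genes higher and 18 lower in place of 19 and 11. A test against a fold change of 2 called 16 partner genes higher and 7 lower. Upper-quartile scaling moved the median log2 fold change of all tested genes from -0.02 to -0.18, and the direction of every tested member held. Same-numbered MAM and RAM libraries did not deviate together (r from -0.04 to 0.03 over 5 pairs, none over 0.1, and 3 of 10 libraries correlating best with their own number). The titles do not say what a number marks, and low correlations over all genes cannot exclude a shared day or batch. The main fit therefore used no pairing. With the replicate block 1753 genes were called higher and 1773 lower in place of 1766 and 1745, and the counts of called ligands and receptors were the same. Genes with few reads, such as Sema3f with 0 to 27 per library, allow no statement at this depth.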
